A study of Mus musculus with 4 samples.

Results

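The MHC class II genes and Ciita, their activator, were followed across 3 mouse leukemias and normal bone marrow. They were taken as the array probe sets annotated to exactly 1 of 9 genes, namely Ciita, Cd74, H2-Aa, H2-Ab1, H2-Eb1, H2-DMa, H2-DMb1, H2-Oa and H2-Ob. Of the 45101 probe sets on the array, 16 met this rule, and they covered 8 of the 9 genes. H2-DMb1 shared its probe sets with its neighbour H2-DMb2 in the platform annotation and is described from those shared probe sets alone. All 8 genes with a probe set of their own exceeded the floor on at least 1 array and so were among the 14012 genes tested, where the floor is 189, the median of all signals.

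Total RNA from each sample was hybridised to 1 array. The mixed lineage leukemia grew from hematopoietic stem or precursor cells that had received both AF4-MLL and MLL-AF4, which are the reciprocal fusions of MLL (Kmt2a) and AF4 (Aff1). The leukemia labelled proB ALL (acute lymphoblastic leukemia of proB type) and the leukemia of both B and T surface type (B/T BAL, a biphenotypic leukemia) grew from cells that had received AF4-MLL alone, and the last sample was normal bone marrow without a fusion. The mice were C57BL6, and their ages are not stated in the labels. Leukemic cells were taken from the marrow of moribund animals and were typed by flow cytometry without sorting, so each sample could hold cells of the host. No group had a replicate, and a value of a single array therefore carries no error.

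The arrays differed in quality and in the cells they showed. Between 46.3% and 57.4% of probe sets lay above the floor, with the highest share on the mixed lineage array, and the ratio of 3' to 5' signals of Actb, a sign of RNA quality, was 2.47 to 4.72 in the leukemias, highest in B/T BAL, against 1.87 in normal marrow. For Gapdh it was 1.14 to 1.28 in the leukemias, lowest in B/T BAL, against 0.944 in normal marrow. The array labelled proB ALL did not look like B-cell precursors: all 9 tested natural killer (NK) cell markers exceeded normal marrow at least 2-fold, against 11.3% of all tested genes, while 7 of 8 B-cell markers were at least 2-fold below it, against 18.7%. On the B/T BAL array all 9 T-cell markers exceeded normal marrow at least 2-fold, against 15.4% of all tested genes, and 7 of 8 B-cell markers were at least 2-fold lower, against 17.7%. On the mixed lineage array 5 of 9 monocyte markers were at least 2-fold higher, against 18.8% of all tested genes, and 0 lower, against 15.2%.

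MHC class II molecules present peptides from endosomes to CD4+ T cells, and B cells, dendritic cells and activated macrophages are their main sources in blood-forming tissue. Their alpha and beta chains assemble on the invariant chain, which H2-DM later replaces with peptide, and H2-O restrains H2-DM. Ciita does not bind DNA itself. It is recruited to the X and Y boxes of class II promoters, where the RFX complex, CREB and NF-Y sit. In the RefSeq gene table (GRCm38.p6) the class II genes are neighbours on chromosome 17, in the order H2-Oa, H2-DMa, H2-DMb2, H2-DMb1, H2-Ob, H2-Ab1, H2-Aa and H2-Eb1.

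The promoter windows are shown because Ciita acts through these boxes, and because the windows include H2-Oa, whose signals ran apart from those of the other genes. Of the 9 genes, 6 had a promoter of 300 bases in the RefSeq table. On the gene's own strand, 5 of the 6 held GNAAC, a core of the X box, followed after 10 to 40 bases by TGATTGG, a Y box that holds the NF-Y motif. The remaining gene was H2-DMa. These letters were chosen after the sequences were seen. Among all 32851 promoters of that length, 84.8% held GNAAC on either strand, 7.82% held TGATTGG on either strand, and the spaced pair was held by 0.390% on the gene's own strand and by 0.828% on either strand. The windows (RefSeq, GRCm38.p6) run 5′ to 3′ on the gene's strand, with the X core and the Y box in capitals.
H2-Oa, chr17:34092288-34092350, plus strand: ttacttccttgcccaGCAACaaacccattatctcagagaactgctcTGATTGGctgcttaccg
H2-DMb1, chr17:34153082-34153144, plus strand: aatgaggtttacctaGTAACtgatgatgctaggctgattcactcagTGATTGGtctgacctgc
H2-Ob, chr17:34238803-34238862, plus strand: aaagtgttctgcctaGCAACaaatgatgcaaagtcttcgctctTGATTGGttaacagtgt
H2-Aa, chr17:34287857-34287919, minus strand: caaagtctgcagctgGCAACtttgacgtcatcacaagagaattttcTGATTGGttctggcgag
H2-Eb1, chr17:34305761-34305822, plus strand: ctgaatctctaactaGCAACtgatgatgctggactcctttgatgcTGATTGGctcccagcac
The gap between the X core and the Y box was 23 bases in H2-Ob, 25 in H2-Eb1 and 26 in H2-Oa, H2-DMb1 and H2-Aa.

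Ciita, the activator, had low signals on every array. Its brightest probe set had signals of 349 in the mixed lineage, 393 in the proB ALL and 193 in the B/T BAL sample, against 392 in normal marrow. The mixed lineage and proB ALL arrays thus lay close to normal marrow, and the B/T BAL array lay just above the floor, 2.03-fold lower than normal. Its other probe sets were also lowest in B/T BAL, with 233, 236 and 69.8 against 275 in normal marrow by the next brightest and no signal above the floor by the dimmest. On the scale used for the comparisons, log2(signal + 51.4), Ciita differed from normal marrow by -0.15 in mixed lineage leukemia, by 0.00 in proB ALL and by -0.86 in B/T BAL. That scale understates the change of dim genes.

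**Figure D1:**
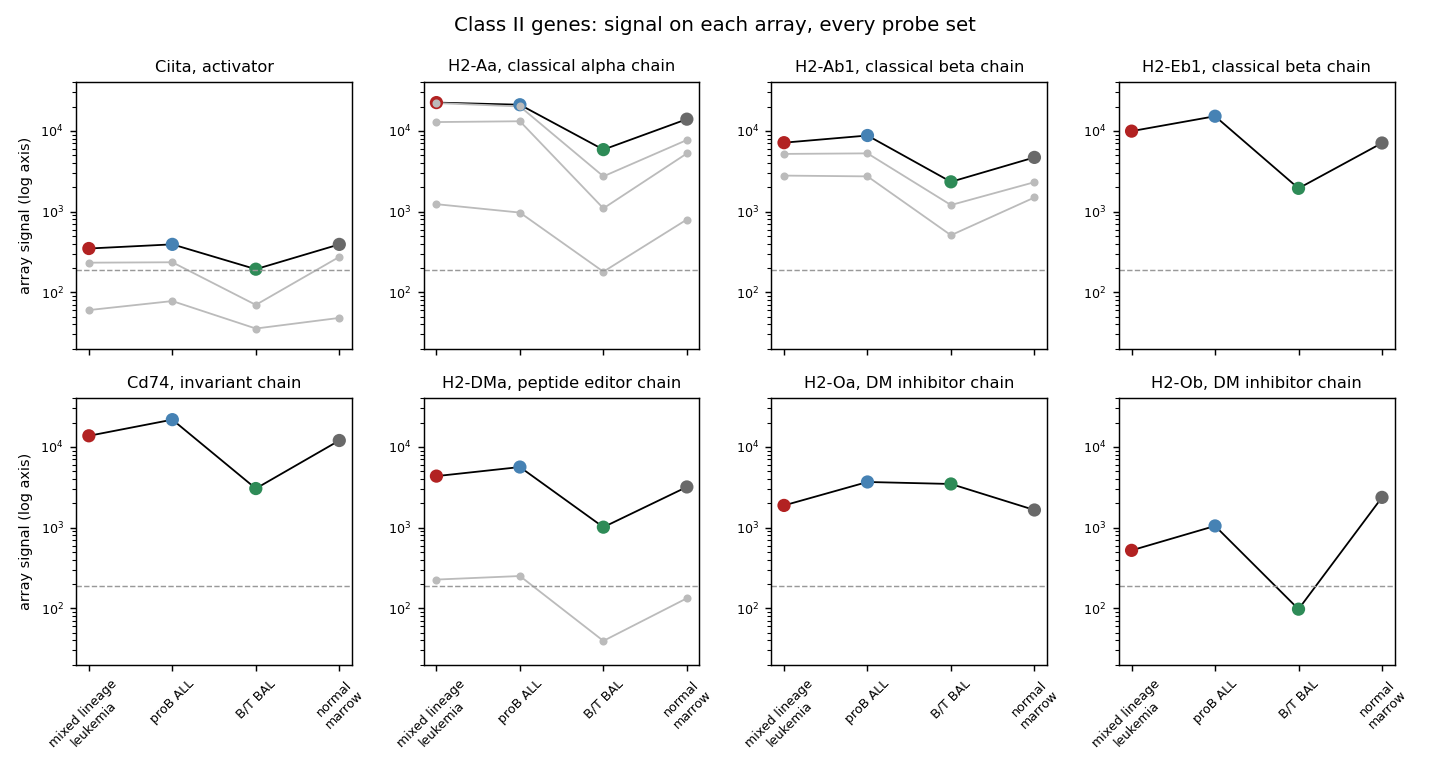
Signal of each class II gene on the 4 arrays, on a log axis. Coloured points mark the probe set that represents the gene, grey points its other probe sets, and the dashed line the floor of 189. Every gene but H2-Oa has its lowest point in B/T BAL, where Cd74 lies at 3049 and H2-Ob at 97.5.

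The classical chains were above normal marrow in mixed lineage leukemia and proB ALL and below it in B/T BAL. H2-Aa, the alpha chain of the A molecule, had signals of 22441 in the mixed lineage, 21107 in the proB ALL and 5862 in the B/T BAL sample, against 13982 in normal marrow. H2-Ab1, its beta chain, had 7149, 8770 and 2338 in the same order of leukemias, against 4696 in normal marrow. H2-Eb1, the beta chain of the E molecule, had 9935 in the mixed lineage, 15208 in the proB ALL and 1942 in the B/T BAL sample, against 7080 in normal marrow. The B/T BAL array was therefore 2.39-fold, 2.01-fold and 3.65-fold below normal marrow for H2-Aa, H2-Ab1 and H2-Eb1. The proB ALL array was 1.51-fold, 1.87-fold and 2.15-fold above it, and the mixed lineage array 1.60-fold, 1.52-fold and 1.40-fold.

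All probe sets of H2-Aa and H2-Ab1 gave the same directions but not the same sizes. The 4 probe sets of H2-Aa had log2 differences from normal marrow of 0.60 to 1.52 in the mixed lineage, 0.27 to 1.37 in the proB ALL and -2.21 to -1.25 in the B/T BAL sample. All 4 are of the kinds marked _x_at or _s_at, which can also bind transcripts of related genes. The 3 probe sets of H2-Ab1 had 0.60 to 1.15, 0.85 to 1.17 and -1.46 to -0.91 on those arrays. The brightest probe set, which stands for the gene throughout, gave the smallest difference in mixed lineage leukemia for H2-Ab1 and the smallest in B/T BAL for H2-Aa.

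H2-Ea, the partner of H2-Eb1, is known to be inactive in C57BL/6 mice through a deletion, and the arrays showed it below the floor throughout. Its 3 probe sets had signals of at most 146 in the mixed lineage, 49.9 in the proB ALL and 66.5 in the B/T BAL sample, against at most 48.8 in normal marrow.

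Cd74, the invariant chain that occupies the peptide groove until the endosome, followed the classical chains. It had 13732 in the mixed lineage, 21778 in the proB ALL and 3049 in the B/T BAL sample, against 12010 in normal marrow. The mixed lineage array was 1.14-fold and the proB ALL array 1.81-fold above normal marrow, while the B/T BAL array was 3.94-fold below it.

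H2-DMa, the alpha chain of the peptide editor, had 4347 in the mixed lineage, 5631 in the proB ALL and 1013 in the B/T BAL sample, against 3191 in normal marrow. That order of the arrays was the same as for Cd74, H2-Ab1 and H2-Eb1, with proB ALL highest and B/T BAL lowest. The other probe set of H2-DMa had 227 in mixed lineage leukemia and 251 in proB ALL, and lay below the floor in B/T BAL and normal marrow. The beta chain could be read only together with its near-identical copy: the probe sets shared by H2-DMb1 and H2-DMb2 had 2030, 1638 and 287 against 1633 in normal marrow, and 1327, 941 and 315 against 669 in normal marrow. By both shared probe sets B/T BAL was lowest, at 5.69-fold and 2.12-fold below normal marrow, and mixed lineage leukemia was highest. The brightest probe set of H2-DMb2 alone had 2079 in the mixed lineage, 3405 in the proB ALL and 468 in the B/T BAL sample, against 3005 in normal marrow.

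The chains of H2-O, the inhibitor of H2-DM, went separate ways. H2-Oa, the alpha chain, had 1883 in the mixed lineage, 3677 in the proB ALL and 3473 in the B/T BAL sample, against 1653 in normal marrow. H2-Ob, the beta chain, had 522 in the mixed lineage, 1049 in the proB ALL and 97.5 in the B/T BAL sample, against 2370 in normal marrow. H2-Oa was thus 2.22-fold above normal marrow in proB ALL and 2.10-fold above it in B/T BAL, whereas H2-Ob was highest in normal marrow, 4.54-fold lower in mixed lineage leukemia, 2.26-fold lower in proB ALL and at least 12.6-fold lower in B/T BAL, counted at the floor. Each chain had 1 probe set of its own. Another probe set, shared by H2-Ob and Gm20506, had 314, 169 and 67.6 against 466 in normal marrow, the same order of B/T BAL lowest and normal marrow highest.

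In mixed lineage leukemia against normal marrow, 0 of the 8 genes were at least 2-fold higher, against 18.8% of all tested genes, and 1 (H2-Ob) was at least 2-fold lower, against 15.2%. By 2 of the 4 probe sets of H2-Aa and 1 of the 3 of H2-Ab1 the difference did exceed 2-fold. The median log2 difference of the 8 genes was 0.32, beside 0.08 over all genes tested.

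In proB ALL against normal marrow, 2 of the 8 genes (H2-Eb1 and H2-Oa) were at least 2-fold higher, against 11.3% of all tested genes, and 1 (H2-Ob) was at least 2-fold lower, against 18.7%. The median was 0.83, beside -0.11 over all genes. Some dimmer probe sets of H2-Aa (log2 differences of 1.37 and 1.32) and H2-Ab1 (1.17) also exceeded 2-fold in proB ALL. The remaining probe sets of these genes did not. In B/T BAL against normal marrow, 5 of 8 (Cd74, H2-Aa, H2-Eb1, H2-DMa and H2-Ob) were at least 2-fold lower, against 17.7% of all tested genes, and 1 (H2-Oa) was at least 2-fold higher, against 15.4%. The median was -1.43, beside 0.05 over all genes. These 3 comparisons share the normal array. At least 2-fold on all 3 leukemia arrays, 1 of the 8 genes (H2-Ob) was lower, against 4.45% of all tested genes, and 0 were higher, against 1.31%. B/T BAL was the lowest of the 4 arrays for 7 of the 8 genes, against 23.1% of all tested genes. For 5 of them (Cd74, H2-Aa, H2-Ab1, H2-Eb1 and H2-DMa) mixed lineage leukemia and proB ALL also lay above normal marrow and B/T BAL below it, against 7.25%. Both patterns were outside the planned comparisons and spell out the values of these genes. The counts and shares therefore describe the pattern and do not test it.

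**Figure D2:**
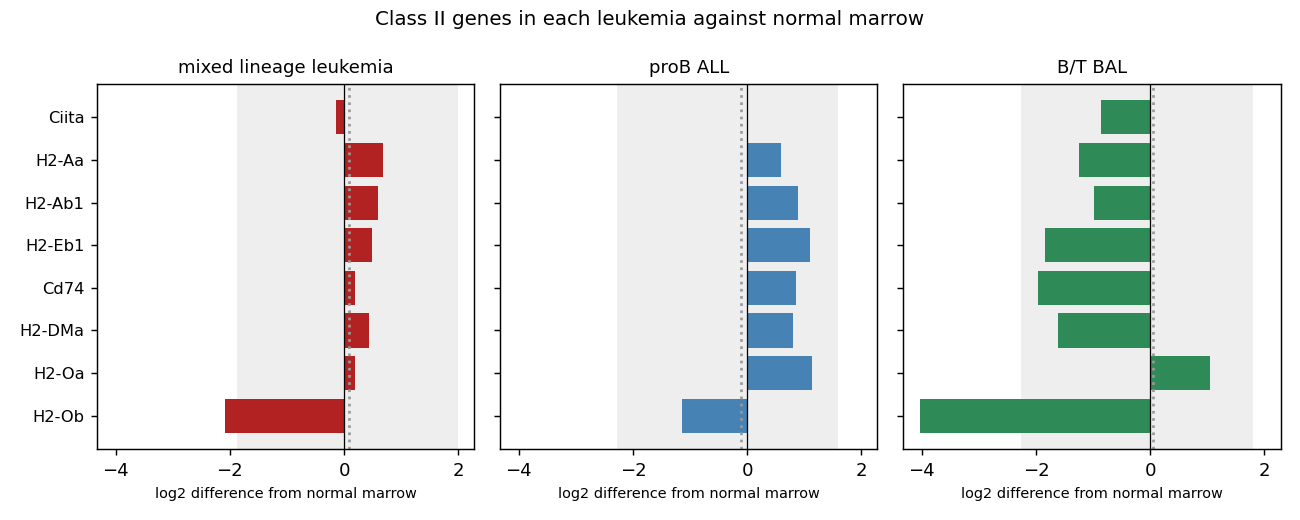
Log2 difference of each class II gene from normal marrow on the 3 leukemia arrays, on the log2(signal + 51.4) scale. Grey bands run from the 5th to the 95th percentile of all tested genes and dotted lines mark their median. H2-Ob lies left of the band on the mixed lineage and B/T BAL arrays, at -2.08 and -4.02; its B/T BAL signal is below the floor, and with that signal raised to the floor the difference is -3.33. H2-Oa is the only bar to the right of 0 in B/T BAL.

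The widest contrast by median lay between the leukemias with AF4-MLL alone. In proB ALL against B/T BAL, 6 of the 8 genes (Cd74, H2-Aa, H2-Ab1, H2-Eb1, H2-DMa and H2-Ob) were at least 2-fold higher, against 10.5% of all tested genes, and 0 were at least 2-fold lower, against 15.9%. H2-Eb1 was 7.83-fold higher in proB ALL and Cd74 7.14-fold, while H2-Oa differed by 1.06-fold. The median log2 difference was 2.15, beside -0.17 over all genes. In mixed lineage leukemia against B/T BAL the same 6 genes were at least 2-fold higher, against 26.3% of all tested genes, and 0 were at least 2-fold lower, against 21.2%, with a median of 1.94. In mixed lineage leukemia against proB ALL, 0 genes were at least 2-fold higher, against 27.3%, and 0 were at least 2-fold lower, against 15.7%, with a median of -0.49. The leukemia with both fusions differed at least 2-fold in 1 direction from both AF4-MLL leukemias for 0 of the 8 genes, against 18.9% of tested genes higher and 10.1% lower. None of these single-array comparisons has a replicate check.

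With the 3 leukemias as a group against normal marrow, limma passed 0 class II genes and 0 of all 14012 genes at an adjusted p of 0.05, which is 0% of genes. At an unadjusted p under 0.05 there were 413 genes, 2.95% of those tested, and 0 of the 8. H2-Ob had the largest difference of the 8, a log2 difference of -2.41 with a standard error of 1.15 (limma adjusted p = 0.9999), and was lower in each leukemia, with its B/T BAL signal below the floor. H2-Oa was higher in each leukemia, by 0.79 with a standard error of 0.72 (limma adjusted p = 0.9999). The other 6 genes had differences between -0.34 and 0.17. The spread came from 3 leukemias of different immunophenotype, and the fit took the normal array to vary as they did.

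The factors of the class II promoter complex were counted in the same way. Of 7 measured genes of the RFX complex, NF-Y and CREB, 0 were at least 2-fold lower in B/T BAL, against 17.7% of all tested genes, and 0 at least 2-fold higher, against 15.4%, and the median log2 difference from normal marrow was 0.33. Creb1, a CREB factor, differed by -0.83 there. Rfx5, the subunit of the RFX complex that binds DNA, had 977 in the mixed lineage, 1242 in the proB ALL and 1760 in the B/T BAL sample, against 1015 in normal marrow. Rfxank, another RFX subunit, was lower than normal in mixed lineage leukemia, with 202 against 617 in normal marrow. Nfya, a subunit of NF-Y, was lower in proB ALL, with 1548 against 3299. These were the only genes of the list to pass 2-fold on any of the 3 arrays. In mixed lineage leukemia 1 of the 7 was thus lower, against 15.2% of all tested genes, and 0 higher, against 18.8%. In proB ALL 1 of the 7 was lower, against 18.7%, and 0 higher, against 11.3%. With 7 genes nothing is read from these counts.

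Among 6 tested regulators of Ciita, Irf8 was the one at least 2-fold lower in B/T BAL alone. Irf8, a factor of myeloid and dendritic cells, had 6631 in the mixed lineage, 5789 in the proB ALL and 1789 in the B/T BAL sample, against 8222 in normal marrow. Spi1 (PU.1), a factor of myeloid and B cells, had 7257, 612 and 1208 on those arrays, against 3444 in normal marrow. Spi1 was thus below normal marrow in proB ALL, where the classical chains were above it. Prdm1, a repressor of Ciita in plasma cells, had 480 in the mixed lineage, 1116 in the proB ALL and 114 in the B/T BAL sample, against 277 in normal marrow. Irf4, a factor of lymphoid cells, had 38.3, 496 and 669, against 1056 in normal marrow, and was below the floor in mixed lineage leukemia. Pax5, which acts on the B-cell promoter of Ciita, lay below the floor on all 4 arrays. The list counted 1 gene at least 2-fold higher and 1 lower in mixed lineage leukemia, 1 and 2 in proB ALL, and 0 and 2 in B/T BAL. The shares of all tested genes were 18.8% and 15.2%, 11.3% and 18.7%, and 15.4% and 17.7%, and with 6 genes nothing is read from these counts.

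Interferon gamma, the main inducer of Ciita outside professional antigen-presenting cells, was above the floor only on the array labelled proB ALL. Ifng had 34.5 in the mixed lineage, 575 in the proB ALL and 49.1 in the B/T BAL sample, against 6.48 in normal marrow. Of the 7 measured genes of this pathway, 4 were at least 2-fold higher in proB ALL than in normal marrow, against 11.3% of all tested genes, and 1 was lower, against 18.7%. The higher ones were Ifng, its receptor chain Ifngr1 (15222 against 3632 in normal marrow), the receptor kinase Jak1 (17895 against 7510) and Socs1, an inhibitor of the pathway (601 against 134). The lower one was the other receptor chain, Ifngr2, with 375 against 923. On the other leukemia arrays 0 of the 7 passed 2-fold in either direction, beside shares of all tested genes of 18.8% higher and 15.2% lower in mixed lineage leukemia and 15.4% and 17.7% in B/T BAL. The part of this pathway in the class II signals was not tested.

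Genes of the endosomal pathway that loads class II were lower in B/T BAL, and some of them in proB ALL too. Of 8 genes of endosomal processing, 5 were at least 2-fold lower in B/T BAL, against 17.7% of all tested genes, and 0 higher, against 15.4%, with a median of -1.19. In proB ALL, where the classical chains were above normal marrow, 3 were lower, against 18.7%, and 0 higher, against 11.3%. The median there was -0.51. In mixed lineage leukemia 1 was lower, against 15.2%, and 1 higher, against 18.8%, with a median of 0.37. Ctss, the protease that trims the invariant chain, had 36412 in the mixed lineage, 16194 in the proB ALL and 5903 in the B/T BAL sample, against 16562 in normal marrow. Lgmn, another endosomal protease, had 1079, 1358 and 356, against 1931 in normal marrow. Of 6 genes of costimulation and class II turnover, 5 were at least 2-fold lower in B/T BAL, against 17.7% of all tested genes. Cd80 was the 1 higher, against 15.4%. In B/T BAL 4 of the 6 lay below the floor, so some of these calls rest on dim signals. Counted at the floor, Cd40 was at least 1.42-fold lower there and Cd80 at least 1.06-fold higher. Cd86, a costimulatory ligand, had 312 in the mixed lineage, 481 in the proB ALL and 85.9 in the B/T BAL sample, against 474 in normal marrow. Marchf1, a ubiquitin ligase that removes class II from the surface, was highest in mixed lineage leukemia, with 3940, 401 and 216 against 910 in normal marrow. Marchf8, a related ligase, was highest in normal marrow, with 1529, 553 and 152 against 7192.

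**Figure D3:**
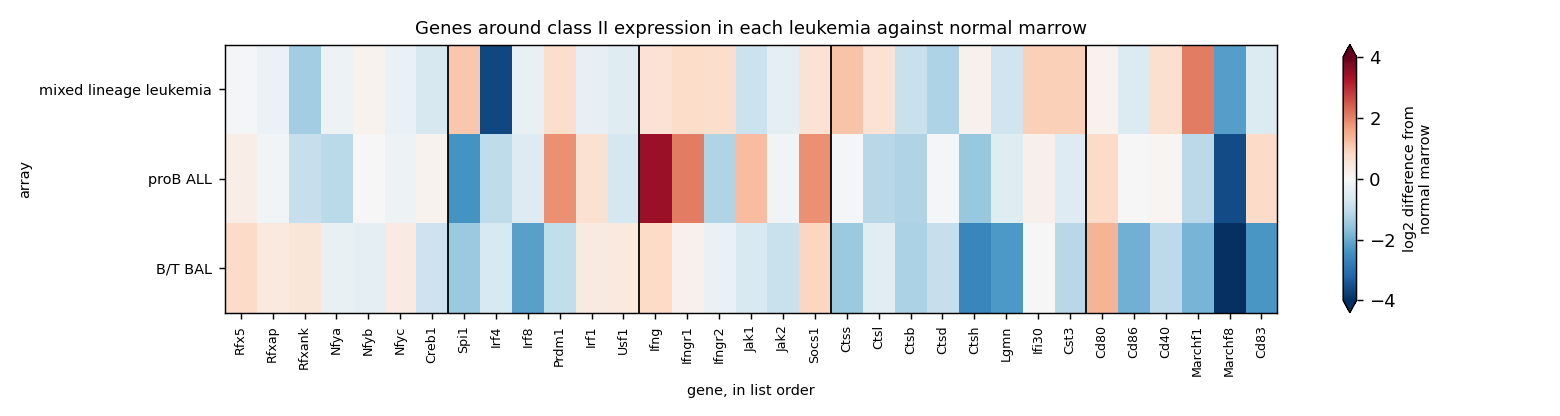
Log2 difference from normal marrow of the tested genes around class II expression, with 1 row per leukemia and 1 column per gene. Lines part the promoter factors, the regulators of Ciita, the interferon gamma pathway, endosomal processing, and costimulation and turnover. Irf1 belongs to both the regulators of Ciita and the interferon list and is drawn once. Cells with a signal below the floor on either side give no exact size, among them Ifng in proB ALL, at least 3.05-fold above normal marrow, and Marchf8 in B/T BAL, at least 38.1-fold below it.

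Markers of the cells that carry class II were themselves lower in several places, and in unsorted marrow fewer such cells and less RNA per cell cannot be told apart. In B/T BAL, 7 of 8 B-cell, 5 of 8 dendritic cell, 10 of 10 macrophage and 7 of 9 monocyte markers were at least 2-fold lower than in normal marrow, against 17.7% of all tested genes. At least 2-fold higher there were 2 dendritic cell markers (Batf3 and Ccr9) and 1 monocyte marker (Vcan), against 15.4%. The summed signals of the tested B-cell markers were 17876 in the mixed lineage, 25862 in the proB ALL and 21119 in the B/T BAL sample, against 61544 in normal marrow. Ighm, the heavy chain of IgM, made up most of these sums. Without it, a sum chosen after the values were seen, they were 8714, 4687 and 1698, against 21441 in normal marrow, with the order of the leukemias changed. Those of the macrophage markers were 18032, 17561 and 8554, against 42151 in normal marrow. In mixed lineage leukemia and proB ALL the classical chains were above normal marrow while 5 and 7 of the 8 B-cell markers and 7 and 7 of the 10 macrophage markers were at least 2-fold lower, against 15.2% and 18.7% of all tested genes. Some of these calls rest on dim signals. Marco, counted as lower on each leukemia array, had 211 in normal marrow and was at least 1.12-fold lower when counted at the floor. Cr2, counted as lower in proB ALL, had 234 in normal marrow and was at least 1.24-fold lower.

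Dendritic cell and monocyte markers differed between those leukemias. The monocyte markers summed to 152204 in the mixed lineage, 25825 in the proB ALL and 33358 in the B/T BAL sample, against 76006 in normal marrow. Lyz2 alone gave 71213, 6937 and 20315 of these sums, and 41486 of that in normal marrow. Ccr2 gave 11910 of the sum in proB ALL. There 7 of 9 monocyte markers were at least 2-fold lower than in normal marrow, against 18.7% of all tested genes. The 1 higher was Ccr2, against 11.3%. The dendritic cell markers summed to 6583, 6864 and 5435, against 5421 in normal marrow. Ccr9 alone gave 3859 of the sum in B/T BAL and 713 of it in normal marrow. The median log2 difference of these markers from normal marrow was -1.65 in B/T BAL. At least 2-fold, 1 was higher and 1 lower in mixed lineage leukemia, against 18.8% and 15.2% of all tested genes. In proB ALL 3 were higher and 1 lower, against 11.3% and 18.7%. Itgax, which NK cells also carry, had 675 in the mixed lineage, 2322 in the proB ALL and 564 in the B/T BAL sample, against 848 in normal marrow. Zbtb46, a factor of conventional dendritic cells, had 184, 326 and 46.7, against 500 in normal marrow, and Siglech, of plasmacytoid dendritic cells, had 561, 774 and 148, against 1048. Batf3, a factor of conventional dendritic cells, ran the other way, with 686, 425 and 299, against 107 in normal marrow, which is below the floor. Ccr9, which T-cell precursors also carry, had 1148 in the mixed lineage, 1643 in the proB ALL and 3859 in the B/T BAL sample, against 713 in normal marrow. Cd209a and Clec10a were above normal marrow in mixed lineage leukemia and below it on the other leukemia arrays. Cd209a had 964 in the mixed lineage, 150 in the proB ALL and 56.1 in the B/T BAL sample, against 542 in normal marrow. Clec10a had 1614, 653 and 268, against 869 in normal marrow. Xcr1, of a dendritic cell subset, was below the floor on all 4 arrays. Cd79b, a chain of the B-cell receptor, had 3051, 2484 and 352, against 6035 in normal marrow. The part of these cells in the class II signals was not tested.

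**Figure D4:**
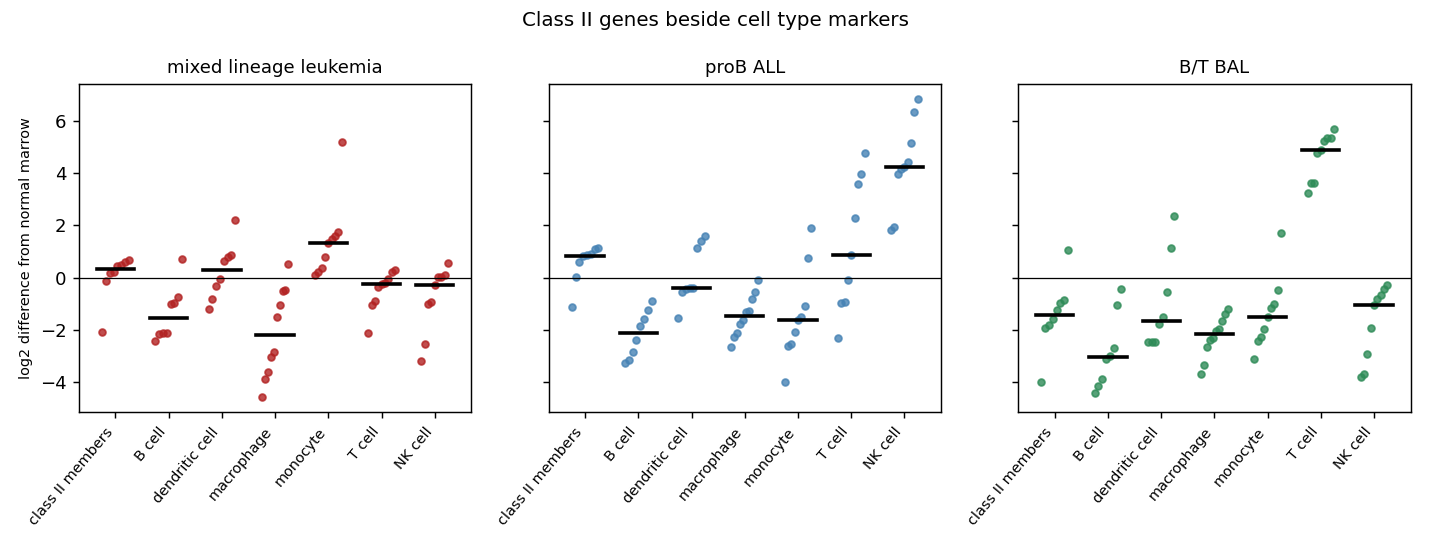
Log2 difference from normal marrow of each tested class II gene and each tested cell type marker, with black lines at the medians. In proB ALL the class II median of 0.83 stands beside medians of -2.14 for B-cell and 4.24 for NK cell markers. In B/T BAL the class II median of -1.43 stands beside -3.07 for B-cell and 4.90 for T-cell markers.

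The closest patterns over the 4 arrays were found by Euclidean distance between log2 values centred on each gene's mean. The genes nearest to the mean of the 8 class II genes were Hoxb3, Spcs3, Tnfsf14, Ifnar2, Tvp23b, Cyria, Chd9 and 1810073O08Rik, at distances of 0.16 to 0.22. Among them Ifnar2 had signals of 6434 in the mixed lineage, 7996 in the proB ALL and 2028 in the B/T BAL sample, against 5265 in normal marrow. The class II genes themselves lay farther from their own mean, from 0.42 for H2-Ab1 to 1.99 for H2-Oa. The nearest genes were picked as the closest of all tested genes, so nothing is read from this contrast. Nearest to Ciita were Zc3hav1, Rab3gap2 and Pbxip1, at 0.08 to 0.10, and the nearest class II gene to Ciita was H2-Ab1, at 0.90. With 4 arrays such distances only describe these samples.

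H2-Eb2, a class II beta chain gene outside the 9, had a pattern like that of H2-Oa in the AF4-MLL leukemias. It had 1028 in the proB ALL and 853 in the B/T BAL sample, against 346 in normal marrow, and lay below the floor in mixed lineage leukemia, with 66.8. It was thus higher than normal in both AF4-MLL leukemias by this 1 probe set.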

How the data were processed

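Biotin-labelled RNA of 4 samples was measured on 1 Affymetrix mouse array each. The deposited values are intensity values, 1 linear signal per probe set, for which the submitters' processing notes name MAS5 (version and settings not stated there). The trimmed mean, with 2% of probe sets removed at each end, was 1000 on every array, so the arrays share a global scale. Control probe sets (64) were left out, 34945 probe sets had 1 gene symbol in the platform annotation, and those with several (932) or none (9160) were not used for genes. Genes of the lists for which no probe set with a single symbol was found were not analysed here.

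Signals were analysed as log2(signal + 51.4), the 25th percentile of all signals. Each gene took the values of the probe set whose mean log2 value was highest, and was tested where this exceeded the median, 189, on at least 1 array. Calls of 2-fold use the log2 scale. Folds in the text are ratios of signals, with a side below 189 set to 189 and the fold given as "at least". Leukemias were set against normal marrow by limma 3.58.1 under R 4.3.3 (intensity trend, 3 arrays against 1, 2 residual degrees of freedom, Benjamini-Hochberg over all genes), and the fit was tried on simulated data. The labels do not say whether any samples shared a preparation, and p-values measure only the spread between these leukemias. Other comparisons had 1 array a group and no test. Named genes are the class II genes, genes of fixed lists (up to 4 of each list with the largest difference on an array), and the 8 and 3 nearest patterns. Pax5, Xcr1, Ifngr2 and Cr2 fall outside this rule and were chosen after their values were seen. The members and lists were chosen with earlier results of these data known. Alternatives covered the pseudocount, scaling, filter, dim signals, choice of probe set, eBayes settings and each leukemia left out; a B-cell marker sum without Ighm was added after the data were seen. The number of arrays, 4, limits the precision of every value.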

Additional observations from a re-analysis of the deposited data

Results flagged for a closer look

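For 5 class II genes, leukemias at least 2-fold apart lay on opposite sides of normal marrow. Mixed lineage leukemia and proB ALL were above it and B/T BAL below it, and with 1 array each these differences were not tested. The log2 differences of mixed lineage leukemia from B/T BAL were 2.15 for Cd74, 1.93 for H2-Aa, 1.59 for H2-Ab1, 2.32 for H2-Eb1 and 2.05 for H2-DMa. Those of proB ALL from B/T BAL were 2.82 for Cd74, 1.84 for H2-Aa, 1.88 for H2-Ab1, 2.94 for H2-Eb1 and 2.42 for H2-DMa. Of all tested genes, 7.25% lay above normal marrow in mixed lineage leukemia and proB ALL and below it in B/T BAL. That pattern was taken from the values of these same genes, so the share is no test of it.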

How the results depend on the processing

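Differences of single class II genes between arrays were recomputed with another pseudocount, scaling, treatment of dim signals or choice of probe set. Of 330 such values, 322 moved by less than 1.5-fold, 8 moved by more, and 0 that had passed 2-fold turned in direction. All 8 were differences of B/T BAL. With a pseudocount at the 50th percentile and with signals raised to the floor, H2-Ob moved to -3.16 and -3.33 against normal marrow (-4.02), mixed lineage leukemia from B/T BAL to 1.31 and 1.26, and proB ALL from B/T BAL to 2.11 and 2.20. With the mean over probe sets, H2-Aa moved to 2.72 in mixed lineage leukemia and 2.59 in proB ALL, each against B/T BAL. Members at least 2-fold higher in mixed lineage leukemia than in normal marrow numbered 0, but 1 with the mean over probe sets and 1 without _x_at and _s_at probe sets, a setting that leaves H2-Aa with no probe set. In B/T BAL the 1 gene at least 2-fold higher, H2-Oa, became 0 with a pseudocount at the 50th percentile, which shrinks differences by its construction. The other counts of 2-fold class II genes and the medians that were recomputed stayed within 1.5-fold under these alternatives. They were those of each leukemia against normal marrow and of proB ALL against B/T BAL. The counts of mixed lineage leukemia against both AF4-MLL leukemias were recomputed too. Counts and medians of mixed lineage leukemia against each AF4-MLL leukemia alone were not recomputed. Nor were the counts over all 3 leukemias and those of the other gene lists.

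Over all genes limma passed 0 as lower, but 15 with a pseudocount at the 50th percentile and 23 with robust eBayes. With each leukemia left out in turn, 0 to 109 genes were lower and 0 to 4 higher; the 109 came without B/T BAL, and 67 lower and 4 higher without proB ALL. No class II gene passed in any of these settings, where adjusted p-values were 0.632 or more. The sign of the combined difference depended on which leukemias were included. With each left out in turn it ran from -0.88 without proB ALL to 0.52 without B/T BAL for Cd74, from -0.68 to 0.79 for H2-Eb1 and from -0.58 to 0.62 for H2-DMa on the same terms, against -0.30, -0.09 and -0.12 with all 3. H2-Aa (0.01 with all 3) ran from -0.33 without mixed lineage leukemia to 0.64 without B/T BAL, with -0.28 without proB ALL, and was -0.017 under quantile normalization. H2-Ab1 (0.17 with all 3) ran from -0.19 without proB ALL to 0.75 without B/T BAL, with -0.048 without mixed lineage leukemia. H2-Ob stayed between -3.05 and -1.61 and H2-Oa between 0.62 and 1.09. No paired analysis was possible because each group held 1 array. Ciita, at most 393 on any array, is limited by its low signal over the floor.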
